A study of Mus musculus with 12 samples.

Results

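Glycolysis and hypoxia response genes were followed in mouse peritoneal macrophages with and without IκBζ, in untreated cells and after lipopolysaccharide (LPS). The set was a named list of 40 genes: glucose and lactate carriers, glycolytic enzymes, the PFKFB enzymes that set the level of the allosteric activator of phosphofructokinase, the hypoxia-inducible factors with their hydroxylases, and other known hypoxia-response genes. A gene counted as measured if the array held a probe set annotated with its symbol and no other, and the probe set with the highest mean was used. By that rule 36 of the 40 were measured, out of 19938 genes in all. The list was chosen with earlier results of these data known. Gpi1, Pfkfb1 and Eno1 had no such probe set, and Gapdh was present only in 25 probe sets that carry several symbols.

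Glycolysis splits glucose to pyruvate in the cytosol, and activated macrophages are known to lean on it and to export lactate. Its committed step is phosphofructokinase, which the product of the PFKFB enzymes switches on; each PFKFB enzyme both makes and removes that product, and Pfkfb3 is the isoform with the strongest kinase over phosphatase activity. The transcription factor HIF-1α turns on many glycolytic genes, and the prolyl hydroxylases encoded by Egln1 and Egln3 mark it for degradation when oxygen is present, while their own genes are in turn HIF targets.

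The 12 arrays were 1-colour Affymetrix whole-transcript arrays, 3 in each of 4 groups. They covered Nfkbiz-/- (KO) macrophages given 1 µg/ml LPS for 4 h, KO macrophages left untreated, C57Bl/6 wild-type (WT) macrophages given the same LPS, and WT macrophages left untreated. Cells were washed from the peritoneum of female mice, of an age not given in the labels, plated, and cultured for 2 h without any sort. Nothing states that replicates came from different mice, so each p-value reflects the spread among the arrays of a group, and that spread may be technical.

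Levels below are the deposited intensities on a linear scale, and differences are log2 intensity, KO minus WT or LPS-treated minus untreated, with the standard error (SE) of the fit. Tests used limma across all 19938 genes with 4 group means, and a gene was called at a Benjamini-Hochberg adjusted p under 0.05. Rises and falls with LPS are differences between LPS-treated and untreated cells. Any part of time in culture in them was not tested. Each probe set has its own response to its target, so levels are compared between samples and not between genes. In cell populations such as these, fewer cells of a type and less RNA per cell cannot be told apart.

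The targeted gene was measured first. Nfkbiz read 1568, 1335 and 1634 on the LPS-treated KO arrays, against 3371, 3786 and 3079 on the LPS-treated WT arrays. In untreated cells it read 267, 286 and 274 in KO, against 463, 431 and 406 in WT. The log2 difference was -1.17 with LPS (limma adjusted p = 7.23e-05) and -0.65 without (limma adjusted p = 0.0401), so every KO array lay below every WT array of its treatment. Signal remained in KO, and no source used here places the probe set inside or outside the deleted part. The macrophage label was borne out by all 8 macrophage markers checked, which lay between the 83.9th and the 100th percentile of all genes. Their sum was 45107 to 45593 on the LPS-treated KO arrays, against 42948 to 43567 on the LPS-treated WT arrays, with Mertk called higher and Adgre1 lower in KO. Summed neutrophil markers were 2592 to 3238 on the LPS-treated KO arrays, against 3333 to 4272 on the LPS-treated WT arrays. Mmp8 made up most of that sum, with LPS-treated means of 2586 in KO and 3616 in WT, and was not called (limma adjusted p = 0.058). With LPS, Ly6g, Camp, Ngp and Ltf differed by 0.27, 0.08, 0.05 and 0.01, and Cxcr2 by -0.02, none of them called. Summed T and NK cell markers were 365 to 401 on the LPS-treated KO arrays, against 318 to 349 on the LPS-treated WT arrays. These markers lay between the 3.2nd and the 53.7th percentile of all genes. The highest of them, Cd3e, averaged 192 in LPS-treated KO and 156 in LPS-treated WT cells (log2 difference 0.29, limma adjusted p = 0.0337). The neutrophil sum and the T and NK cell sum thus both separated the genotypes, the neutrophil sum mainly through Mmp8. The other 4 lists overlapped. Summed markers of mast cells spanned 596 to 2320 on the LPS-treated KO arrays, against 607 to 923 on the LPS-treated WT arrays. Of the 6 lists of other cell types, 1 held a gene called between the genotypes with LPS, the T cell gene Cd3e; the part of these markers in the results was not tested.

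Replicate 2 of the LPS-treated KO group had the most members far from the rest of its group. It was the lowest of its group for 24 of the 36 members and the highest for 7, and for 5 members it lay more than 2-fold from both other arrays. Replicate 3 of the LPS-treated WT group was the highest of its group for 25 members, 2 of them by more than 2-fold. Other arrays also ranked at one end of their group, with untreated KO replicate 3 the highest for 30 members, untreated WT replicate 1 the highest for 26, and untreated KO replicate 2 and LPS-treated WT replicate 2 each the lowest for 23. Of these arrays, none had more than 2 members beyond 2-fold of both others. Untreated WT replicate 2 had 2 such members.

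**Figure D1:**
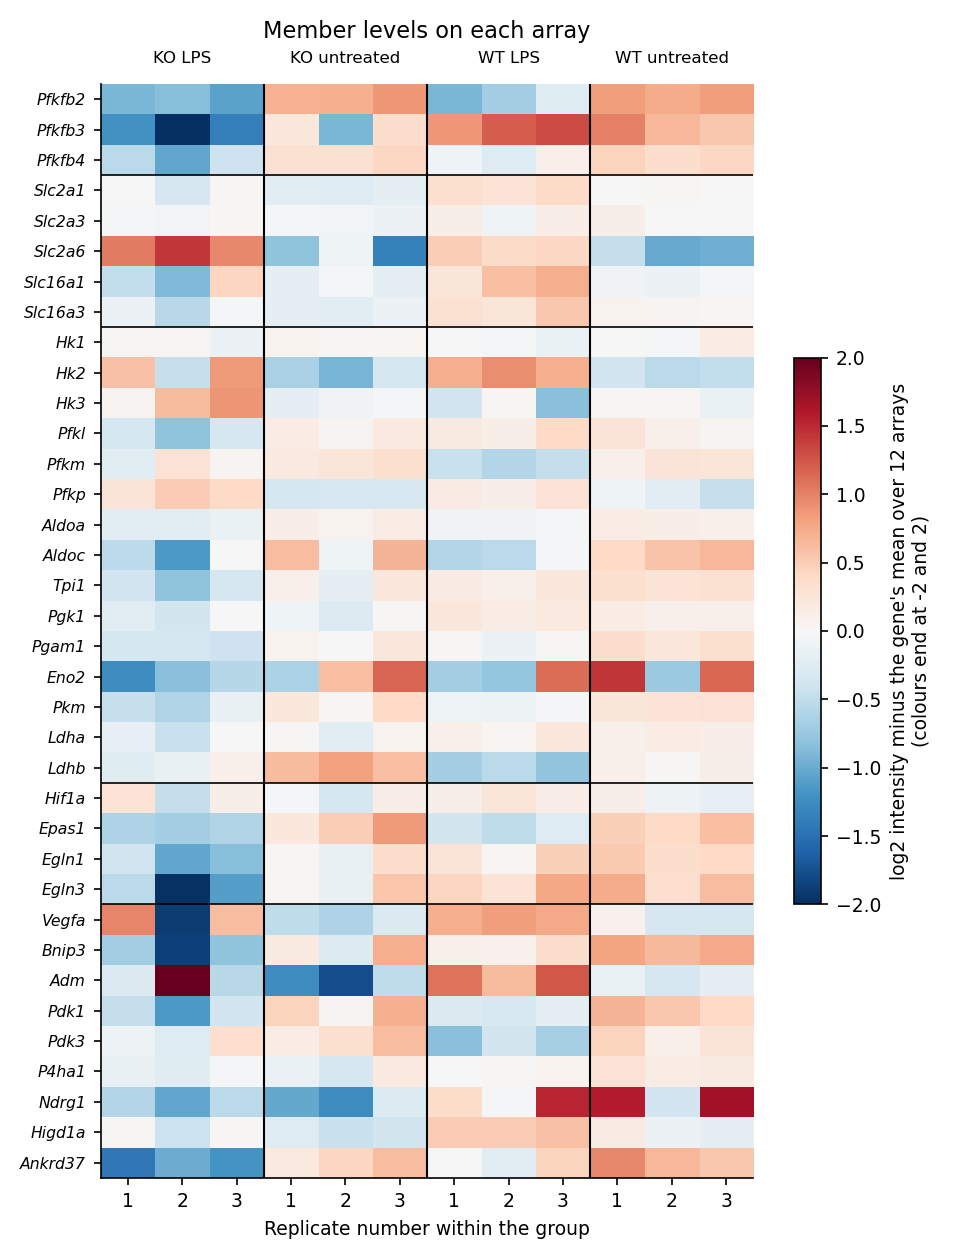
Log2 intensity of each of the 36 measured genes on each of the 12 arrays, shown as the difference from that gene's mean over all arrays (rows, genes by role; columns, replicates within each group; colour scale in log2 units, ending at -2 and 2). Replicate 2 of the LPS-treated KO group departs from the other arrays of its group, most visibly for Pfkfb3, Vegfa and Adm.

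The upstream sequences of some of the members are given here, so that the values can be read beside the regulatory DNA. Pfkfb2 is among them though it was not called between the genotypes with LPS. Shown are the 250 bases before annotated starts of the 3 measured PFKFB genes and of Egln3, Bnip3 and Ankrd37, the hypoxia-response genes with the largest genotype differences among those called in LPS-treated cells and found in the table. They are written 5′ to 3′ on the gene's own strand, from RefSeq on GRCm38.p6. Capitals mark the core of the hypoxia response element, ACGTG or GCGTG, on either strand (read as CACGT or CACGC where it lies on the other strand). A CACGTG run counts once on each strand. For Pfkfb2, which has several annotated starts, the window with the most matches is shown.
Pfkfb3 downstream start chr2:11502091-11502340 (minus strand): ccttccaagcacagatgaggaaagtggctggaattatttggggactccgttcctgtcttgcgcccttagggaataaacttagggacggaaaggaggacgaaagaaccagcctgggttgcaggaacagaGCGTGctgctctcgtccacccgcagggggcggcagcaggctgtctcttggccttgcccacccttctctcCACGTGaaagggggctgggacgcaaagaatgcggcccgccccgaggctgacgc
Pfkfb3 upstream start chr2:11553930-11554179 (minus strand): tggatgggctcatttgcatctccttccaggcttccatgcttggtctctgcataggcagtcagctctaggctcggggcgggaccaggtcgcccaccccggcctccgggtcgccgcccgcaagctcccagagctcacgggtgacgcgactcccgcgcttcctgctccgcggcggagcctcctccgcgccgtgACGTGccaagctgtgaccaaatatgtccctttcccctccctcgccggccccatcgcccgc
Pfkfb2 chr1:130715822-130716071 (minus strand): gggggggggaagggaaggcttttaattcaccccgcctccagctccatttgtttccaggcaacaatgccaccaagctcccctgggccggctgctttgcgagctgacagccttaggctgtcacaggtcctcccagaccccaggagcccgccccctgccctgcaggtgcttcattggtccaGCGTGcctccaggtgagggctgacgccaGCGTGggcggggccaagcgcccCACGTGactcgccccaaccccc
Pfkfb4 chr9:108991652-108991901 (plus strand): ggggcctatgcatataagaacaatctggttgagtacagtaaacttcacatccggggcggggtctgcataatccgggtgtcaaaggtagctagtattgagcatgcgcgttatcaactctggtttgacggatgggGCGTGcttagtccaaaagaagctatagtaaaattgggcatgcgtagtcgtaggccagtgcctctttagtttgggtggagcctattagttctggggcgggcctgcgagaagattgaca
Egln3 chr12:54203875-54204124 (minus strand): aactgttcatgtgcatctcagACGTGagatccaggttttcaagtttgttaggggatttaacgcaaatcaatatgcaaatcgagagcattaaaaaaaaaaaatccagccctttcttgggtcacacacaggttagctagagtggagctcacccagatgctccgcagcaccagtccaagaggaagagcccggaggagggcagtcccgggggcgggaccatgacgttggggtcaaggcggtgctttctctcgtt
Bnip3 chr7:138909507-138909756 (minus strand): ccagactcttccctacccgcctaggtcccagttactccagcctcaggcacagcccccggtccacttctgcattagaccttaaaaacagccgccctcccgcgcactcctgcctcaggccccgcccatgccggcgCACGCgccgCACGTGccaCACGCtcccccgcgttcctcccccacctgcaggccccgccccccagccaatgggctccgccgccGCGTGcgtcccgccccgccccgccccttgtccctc
Ankrd37 chr8:45999851-46000100 (minus strand): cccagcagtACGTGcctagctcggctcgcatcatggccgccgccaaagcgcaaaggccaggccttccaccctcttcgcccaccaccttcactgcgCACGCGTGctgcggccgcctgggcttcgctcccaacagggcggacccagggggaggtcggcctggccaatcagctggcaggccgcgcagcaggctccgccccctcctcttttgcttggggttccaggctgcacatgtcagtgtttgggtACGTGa

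The window at the downstream Pfkfb3 start held 3 matches and that at the upstream start held 1. The Pfkfb2 window held 4, Pfkfb4 held 1, Egln3 held 1, Bnip3 held 5 and Ankrd37 held 4. Among the 33 measured members with a window in the RefSeq table, 31 had at least 1 match (93.9%), against 41.5% of the 27025 genes in that table. The share was 92.3% (12 of 13) for members lower in KO cells with LPS and 95.0% (19 of 20) for the other measured members. The share among members lower in KO was thus close to that among the other members. The κB consensus, searched on both strands, was present in 5 of the 33 members (15.2%) and in 8.2% of all genes. It was in 1 of the 13 members lower in KO cells and in 4 of the other 20. A match is a description of the letters in the window.

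With LPS, the glycolysis and hypoxia response genes were called lower in KO than in WT macrophages more often than higher. Of the 36 measured members, 13 were called lower and 3 higher, which is 36.1% and 8.33% of the members. Over all genes tested, 4.87% were called lower and 3.28% higher. Because the members were chosen with earlier results of these data known, these shares describe the list and do not test it. The median log2 difference of the members was -0.39, against -0.01 over all genes, and 29 of 36 members had a negative difference. The lower members were Pfkfb3, Pfkfb4, Slc2a1, Slc16a3, Pfkl, Tpi1, Pgk1, Pgam1, Egln1, Egln3, Bnip3, Higd1a and Ankrd37. The higher members were Hk3, Pfkm and Ldhb. The count of 16 called was 9 without replicate 3 of the LPS-treated WT group. It was 7 without that array and replicate 2 of the LPS-treated KO group together. Fitting only the 6 LPS-treated arrays called 4, and 3 of them were among the 16, namely Pfkfb3, Egln1 and Ankrd37. These fits have fewer arrays, and the share of all genes called in each was not counted. The 7 called without both arrays were Pfkfb3, Slc16a3, Pfkl, Egln1, Egln3, Ankrd37 and Ldhb, and the other 9 lost their calls, among them Tpi1 (limma adjusted p = 0.0625), Pfkm (limma adjusted p = 0.055) and Higd1a (limma adjusted p = 0.0541).

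**Figure D2:**
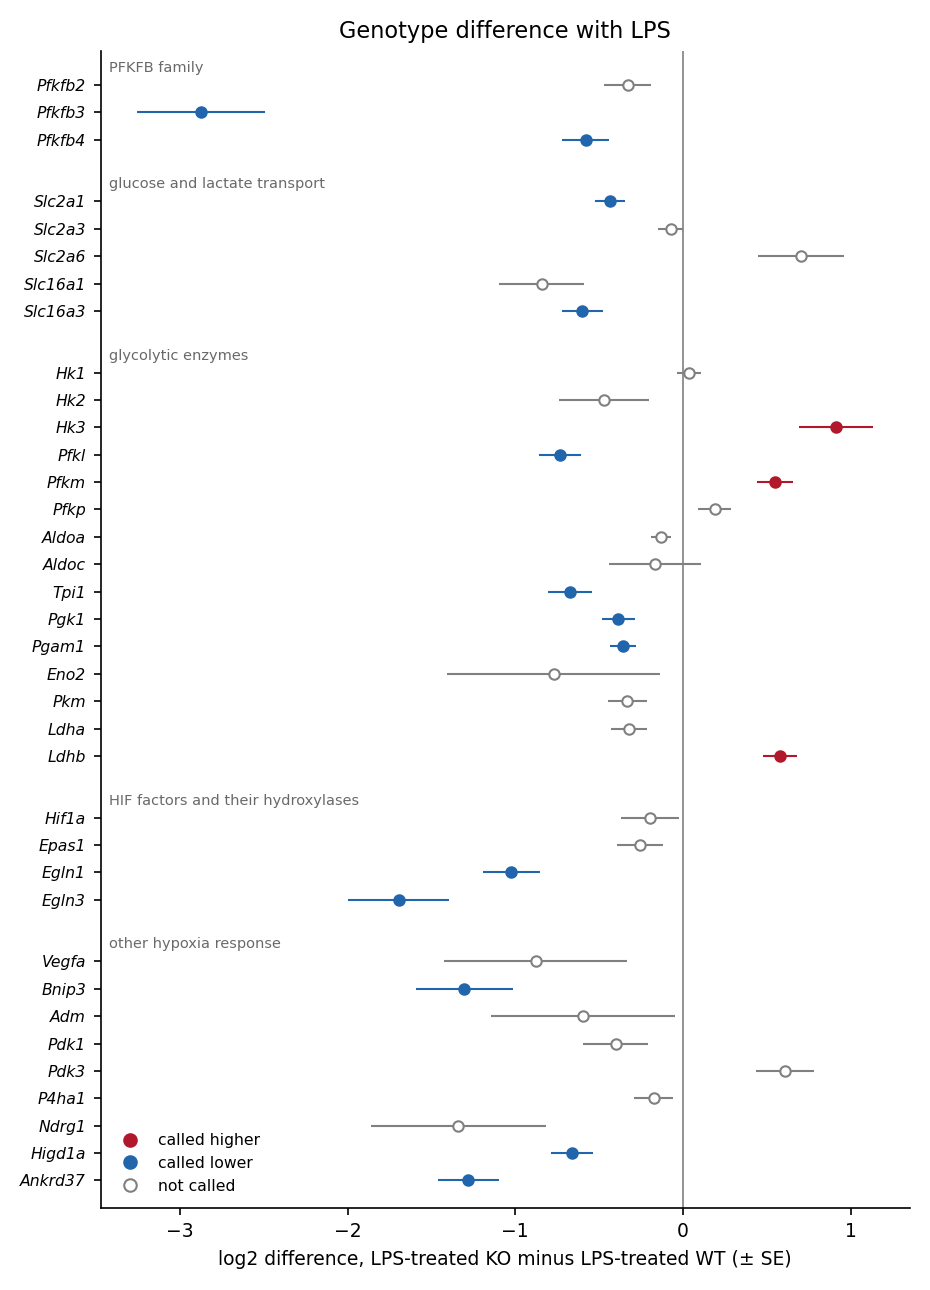
Genotype difference in LPS-treated macrophages for the 36 measured genes, grouped by role (horizontal axis, log2 intensity, LPS-treated KO minus LPS-treated WT, points with SE; 3 arrays per group). The 13 genes called lower lie left of 0, with Pfkfb3 farthest at -2.87, and the 3 called higher lie right of it.

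Pfkfb3 showed the widest genotype gap of all members. It read 636, 232 and 571 on the LPS-treated KO arrays, against 2670.2, 3412 and 3646 on the LPS-treated WT arrays. In untreated cells it read 1700.1, 785 and 1869 in KO, against 2942, 2343 and 2127 in WT. Replicate 2 was the lowest KO array in both treatments, and no KO array reached the lowest WT array in either treatment. With LPS the mean intensity was 479.9 ± 217 in KO cells and 3243 ± 509 in WT cells (SD, n = 3 each). The log2 difference was -2.87 (SE 0.38, limma adjusted p = 0.00123), or 7.33-fold lower in KO. Over the 12 fits that each leave out 1 array it stayed between -3.14 and -2.42. In untreated cells the difference was -0.85 (limma adjusted p = 0.566).

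LPS moved Pfkfb3 in KO cells. It fell by 1.63 on the log2 scale in KO macrophages (SE 0.38, limma adjusted p = 0.00466), which is 3.09-fold lower than in untreated KO cells. In WT macrophages the difference was 0.39 (SE 0.38, limma adjusted p = 0.483) and the arrays of both treatments overlapped. Within KO, arrays with the same replicate number differed by -1.42, -1.76 and -1.71. The difference between both LPS responses was -2.02 (SE 0.54) and was not called (limma adjusted p = 0.125). With the replicate number as a block within each genotype it was called (limma adjusted p = 0.00505, same size); same-numbered KO arrays deviated together, and same-numbered WT arrays did so in only 2 of 3 pairs.

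Of the paralogues, Pfkfb4 was called between genotypes with LPS and Pfkfb2 was not. Pfkfb2, the isoform best known from heart, read 118, 124 and 106 on the LPS-treated KO arrays, against 117, 138 and 188 on the LPS-treated WT arrays. Without LPS it read 360.1, 362 and 404 in KO, against 397, 370.2 and 395 in WT. The genotypes overlapped in both treatments, and the difference with LPS was -0.33 (limma adjusted p = 0.195). Pfkfb2 fell with LPS in KO (log2 -1.70, limma adjusted p = 3.15e-06) and in WT (log2 -1.42, limma adjusted p = 1.81e-05).

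Pfkfb4, the isoform first described in testis and also a HIF target, read 251, 178 and 273 on the LPS-treated KO arrays, against 342, 305 and 390.2 on the LPS-treated WT arrays. Untreated arrays read 448, 448 and 485 in KO, against 498, 466 and 484 in WT. The LPS-treated genotypes did not overlap, with a difference of -0.58 (limma adjusted p = 0.0278), while the untreated ones did. Its genotype call was lost without replicate 1 or without replicate 3 of the LPS-treated WT group. LPS-treated KO cells averaged 234 ± 50 for Pfkfb4, against 460.2 ± 21.1 in untreated KO cells (SD, n = 3 each; limma adjusted p = 0.000155). In WT it fell with LPS too (log2 -0.49, limma adjusted p = 0.022), the WT call being lost when arrays were centred on their 75th percentile or quantile-normalized, and without LPS-treated WT replicate 1 or 2 or untreated WT replicate 1 or 3.

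Pfkfb3 was then set against the paralogues and the enzymes within each array, as a difference of log2 intensities that shows unequal change between probe sets. Pfkfb3 minus Pfkfb2 was 1.93 ± 0.88 on the LPS-treated KO arrays and 4.47 ± 0.18 on the LPS-treated WT arrays (SD, n = 3 each). Pfkfb3 minus Pfkfb4 was 0.93 ± 0.49 in KO and 3.22 ± 0.26 in WT. Pfkfb3 minus the mean of the 15 measured glycolytic enzymes was -2.13 ± 0.70 in KO and 0.60 ± 0.19 in WT. All 3 were lower on every KO array than on any WT array, and the KO minus WT differences of these means were -2.55, -2.29 and -2.74. The exact two-sided permutation p was 0.1 for each of the 3 comparisons and 0.1 after adjustment, the smallest that 3 against 3 arrays can give. Pfkfb3 was thus further below WT than the paralogues or the enzymes on these arrays, in a design that cannot reach the threshold with this test. The LPS-treated Pfkfb2 readings, 106 to 188, lay near the array medians of 110.4 to 118.7, and dim probe sets understate folds.

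**Figure D3:**
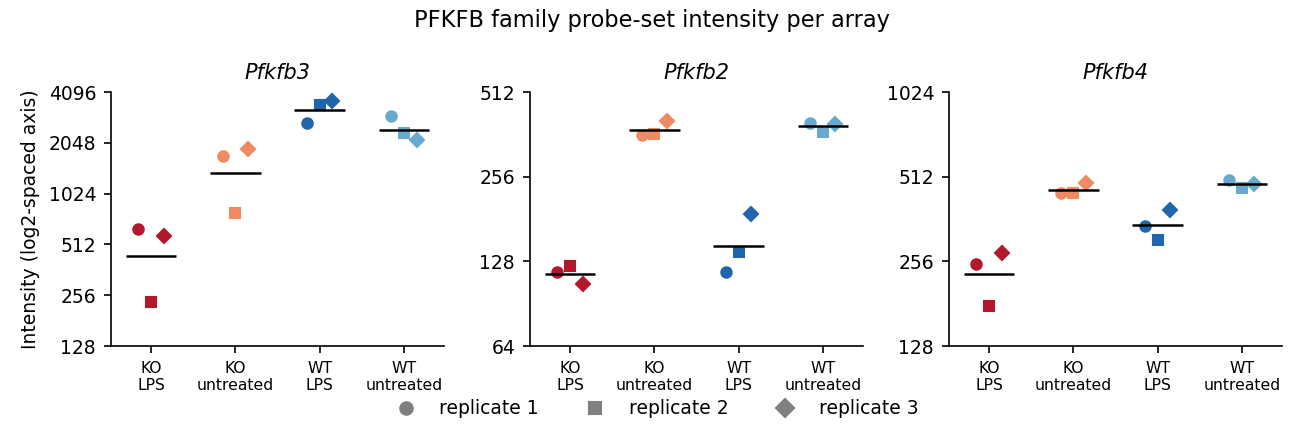
Intensity of Pfkfb2, Pfkfb3 and Pfkfb4 on each array (vertical axis, intensity on a log2-spaced axis; symbols mark the replicate number, bars the group means of log2 intensity; 3 arrays per group). The LPS-treated KO values of Pfkfb3 lie between 232 and 636, below the 2670.2 to 3646 of LPS-treated WT, while the Pfkfb2 values of both genotypes overlap.

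Of the 5 carriers of glucose and lactate, 2 were called lower in KO with LPS (40%), against 4.87% of all genes. Slc2a1, the main glucose importer GLUT1, read 9658, 7729 and 9910.3 on the LPS-treated KO arrays, against 12197, 11765 and 12743 on the LPS-treated WT arrays. Without LPS, Slc2a1 read 8282, 8102 and 8487 in KO, against 9766, 9848 and 9804 in WT. The genotypes were separated in both treatments, with a log2 difference of -0.44 with LPS (limma adjusted p = 0.0127) and -0.24 without (limma adjusted p = 0.477). Slc2a1 rose with LPS in WT by 0.32 (limma adjusted p = 0.0186), a call lost without replicate 1 or 3 of either WT group. Its difference in KO was 0.13 (limma adjusted p = 0.262), and 0.24 and called without LPS-treated KO replicate 2 (limma adjusted p = 0.017).

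Slc16a3, which encodes the lactate exporter MCT4, read 3013, 2221 and 3206 on the LPS-treated KO arrays, against 4054, 3876 and 4746 on the LPS-treated WT arrays. Untreated arrays read 2846, 2787 and 3011 in KO, against 3442, 3395 and 3329.7 in WT. Both treatments separated the genotypes, and the log2 difference with LPS was -0.60 (limma adjusted p = 0.0133). Without replicate 3 of the LPS-treated WT group, neither Slc2a1 nor Slc16a3 was called.

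Slc2a6, which encodes a lysosomal hexose transporter, had the largest LPS response among the members when both genotypes were averaged. It read 8001, 10484 and 7662 on the LPS-treated KO arrays, against 2248, 3691 and 1540.0 on the untreated KO arrays. In WT it read 5524, 5109 and 5264 with LPS, against 2837, 1957 and 2003 without. LPS raised it 3.69-fold in KO (limma adjusted p = 0.000126) and 2.37-fold in WT (limma adjusted p = 0.00338). All 3 LPS-treated KO arrays were above the LPS-treated WT arrays, with a log2 difference of 0.70 that was not called (limma adjusted p = 0.125). Slc16a1, the lactate carrier MCT1, averaged 326 ± 159 in LPS-treated KO and 546 ± 92.5 in LPS-treated WT cells (SD, n = 3 each; limma adjusted p = 0.0672). Slc2a3, a high-affinity glucose importer, read between 71.8 and 86 on all 12 arrays, with 0 of 5 comparisons called.

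Among the 15 measured glycolytic enzymes, 4 were called lower (26.7%) and 3 higher (20%) in KO with LPS, against 4.87% and 3.28% of all genes. Those called lower were spread along the pathway from phosphofructokinase to phosphoglycerate mutase, and those called higher were alternative isozymes of 3 steps. Pfkl, the liver-type subunit of phosphofructokinase, read 2030.4, 1481 and 2058 on the LPS-treated KO arrays, against 2940.5, 2829.7 and 3413 on the LPS-treated WT arrays. Untreated arrays of Pfkl read 2874, 2694 and 2990.1 in KO, against 3105, 2792 and 2713 in WT. The genotypes overlapped without LPS and were separated with it, by a log2 difference of -0.73 (SE 0.12, limma adjusted p = 0.00505). Pfkl fell with LPS in KO (log2 -0.63, limma adjusted p = 0.00155), and its difference in WT was 0.09 (limma adjusted p = 0.63).

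Pfkm, the muscle-type subunit, differed the other way. It read 217, 305 and 259 on the LPS-treated KO arrays, against 183, 166 and 179.8 on the LPS-treated WT arrays. Untreated arrays read 287, 296 and 312 in KO, against 268, 298 and 295 in WT. The LPS-treated KO arrays were all higher, with a log2 difference of 0.55 (SE 0.11, limma adjusted p = 0.011). LPS lowered Pfkm in WT (log2 -0.70, limma adjusted p = 0.000463), and the difference in KO was -0.21 (limma adjusted p = 0.133), or -0.33 and called without LPS-treated KO replicate 2 (limma adjusted p = 0.0168). Pfkp, the platelet-type subunit, rose with LPS by 0.72 in KO (limma adjusted p = 0.000118) and by 0.46 in WT (limma adjusted p = 0.00408), with means of 1572 ± 131 in LPS-treated KO and 1376 ± 81.5 in LPS-treated WT cells that were not called apart (limma adjusted p = 0.294).

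Tpi1, which interconverts the triose phosphates, read 4022, 3007 and 4169 on the LPS-treated KO arrays, against 5889, 5619 and 6164 on the LPS-treated WT arrays. Without LPS it read 5634, 4561 and 6149 in KO, against 6563, 6313 and 6452 in WT. KO arrays were lower in both treatments, and the log2 difference was -0.67 with LPS (limma adjusted p = 0.00973) and -0.25 without (limma adjusted p = 0.621). Tpi1 fell with LPS in KO (log2 -0.55, limma adjusted p = 0.00509).

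Pgk1, the first ATP-yielding enzyme of the pathway, read 6184, 5518 and 7083 on the LPS-treated KO arrays, against 8371, 7858 and 8194 on the LPS-treated WT arrays. The untreated arrays read 6691, 5861 and 7239.7 in KO, against 7875, 7652 and 7641 in WT. The groups were separated in both treatments, but the log2 difference of -0.39 with LPS (limma adjusted p = 0.0347) was no longer called in 8 of the 12 fits with 1 array omitted. LPS did not give a call in either genotype.

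Pgam1, the phosphoglycerate mutase, read 4633, 4631 and 4451 on the LPS-treated KO arrays, against 6048, 5492 and 6025 on the LPS-treated WT arrays. Untreated arrays read 6242, 5922 and 6919 in KO, against 7569, 6869 and 7436 in WT. With LPS the log2 difference was -0.36 (limma adjusted p = 0.016), and 3 of the 12 fits with 1 array omitted did not call it. The other probe sets of Pgk1 and Pgam1 gave the same genotype calls; a pair of them for each gene held identical values on every array, and near-identical copies of these genes may share their probes.

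Hk3, a hexokinase abundant in myeloid cells, was higher in KO with LPS. It read 1013, 1516 and 1802 on the LPS-treated KO arrays, against 754, 1005 and 546 on the LPS-treated WT arrays. Untreated arrays read 852, 933 and 966 in KO, against 996, 994 and 894 in WT. The LPS-treated groups nearly touched, the difference was 0.91 (SE 0.22, limma adjusted p = 0.0267), and 4 of the 12 fits with 1 array omitted did not call it. Ldhb, the lactate dehydrogenase subunit of oxidative tissues, read 303, 325 and 386 on the LPS-treated KO arrays, against 224, 246 and 209 on the LPS-treated WT arrays. In untreated cells it read 559, 636 and 545 in KO, against 386, 366 and 392 in WT. Ldhb was higher on every KO array in both treatments, by 0.58 with LPS (SE 0.10, limma adjusted p = 0.00592) and by 0.60 without (limma adjusted p = 0.0656). Its second probe set gave 0.73 without LPS and was called there (limma adjusted p = 0.0283).

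Hexokinase 2, the inducible isozyme encoded by Hk2, rose with LPS in both genotypes. It read 2172, 1048 and 2617 on the LPS-treated KO arrays, against 922, 761 and 1133 on the untreated KO arrays. In WT it read 2405, 2770.2 and 2379 with LPS, against 1105, 1000.1 and 1029.9 without. LPS raised it by 0.97 in KO (limma adjusted p = 0.0117), where replicate 2 overlapped the untreated arrays, and by 1.27 in WT (limma adjusted p = 0.00372). The genotypes were not called apart with LPS (-0.47, limma adjusted p = 0.353). Hk1, the housekeeping hexokinase, averaged 6174 ± 338 in LPS-treated KO and 6010.1 ± 271 in LPS-treated WT cells (SD, n = 3 each), with 0 of 5 comparisons called for either of its probe sets.

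Aldoc, an aldolase isozyme, read 944, 607 and 1346 on the LPS-treated KO arrays, against 2067, 1269 and 2163 on the untreated KO arrays. In WT it read 899, 926 and 1315 with LPS, against 1773, 2008 and 2142 without. LPS lowered it by a log2 difference of -0.96 in KO (limma adjusted p = 0.0142) and -0.93 in WT (limma adjusted p = 0.024), with an overlap in KO. Omitting untreated KO replicate 1 or 3 ended the KO call, and 4 of the 12 fits with 1 array omitted ended the WT call, namely those without LPS-treated replicates 1 and 2 and untreated replicates 2 and 3. Eno2, the enolase isozyme named for neurons, varied widely within groups. It read 79.1, 106 and 127 on the LPS-treated KO arrays, against 121, 286 and 419 on the untreated KO arrays. In WT it read 117, 110.5 and 408 with LPS, against 508, 113 and 416 without. Eno2 had 0 of 5 comparisons called, though with the replicate block within genotype its KO response of -1.26 was called (limma adjusted p = 0.0205).

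Aldoa, Pkm and Ldha were not called between genotypes. Aldoa, the main aldolase, averaged 9830.2 ± 359 in LPS-treated KO and 10749.8 ± 142 in LPS-treated WT cells (SD, n = 3 each; limma adjusted p = 0.222). Pkm, pyruvate kinase, averaged 4577 ± 772 in LPS-treated KO and 5707 ± 173 in LPS-treated WT cells (limma adjusted p = 0.114). Ldha, the main lactate-forming subunit, had a log2 difference of -0.32 between the genotypes with LPS (limma adjusted p = 0.10) and 0 LPS responses called. For each of these 3 the LPS-treated KO arrays were nonetheless below the LPS-treated WT arrays.

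Both hydroxylases among the members were lower in KO with LPS, and both HIF factors were not called. Egln1, which encodes the main oxygen-sensing prolyl hydroxylase PHD2, read 790.3, 505 and 575 on the LPS-treated KO arrays, against 1247, 1073 and 1443 on the LPS-treated WT arrays. Untreated arrays read 1057, 942 and 1323 in KO, against 1491, 1325 and 1374 in WT. The LPS-treated groups were far apart, with a log2 difference of -1.02 (SE 0.17, limma adjusted p = 0.00459), and the untreated groups nearly touched (-0.35, limma adjusted p = 0.594). Egln1 fell with LPS in KO (log2 -0.84, limma adjusted p = 0.00194), and its difference in WT was -0.16 (limma adjusted p = 0.517).

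Egln3, which encodes the hypoxia-inducible hydroxylase PHD3, read 1865, 692 and 1263 on the LPS-treated KO arrays, against 3659, 3275 and 4612 on the LPS-treated WT arrays. Without LPS, Egln3 read 2788, 2437 and 3986 in KO, against 4542, 3429.9 and 4157 in WT. With LPS the genotypes were separated, 3.24-fold lower in KO (log2 -1.69, SE 0.30, limma adjusted p = 0.00637), and without LPS they overlapped. LPS lowered Egln3 in KO by a log2 difference of -1.35 (limma adjusted p = 0.00355), against -0.08 in WT (limma adjusted p = 0.878). Neither hydroxylase lost its genotype call when any 1 array was left out. Egln3 lost it when only the 6 LPS-treated arrays were fitted (limma adjusted p = 0.0554).

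Hif1a, which encodes the inducible factor HIF-1α, read 6219, 3729.7 and 5594 on the LPS-treated KO arrays, against 5605, 6117 and 5673 on the LPS-treated WT arrays, and had 0 of 5 comparisons called. Epas1, which encodes HIF-2α, read 487, 467 and 493 on the LPS-treated KO arrays, against 864, 1047 and 1353 on the untreated KO arrays. In WT it read 581, 523 and 626 with LPS, against 1038, 983 and 1139 without. Epas1 fell with LPS in KO (log2 -1.15, limma adjusted p = 4.35e-05) and in WT (log2 -0.87, limma adjusted p = 0.000493), and the genotypes were not called apart with LPS (-0.25, limma adjusted p = 0.323).

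Of the 9 remaining hypoxia-response genes, 3 were called lower in KO with LPS (33.3%) and 0 higher, against 4.87% and 3.28% of all genes. Bnip3, which encodes a mitophagy receptor, read 1637, 730.5 and 1524 on the LPS-treated KO arrays, against 2864, 2829.8 and 3385 on the LPS-treated WT arrays. Untreated arrays read 3009, 2202 and 4426 in KO, against 4612, 4156 and 4518 in WT. Replicate 2 was the lowest in both KO groups, and with LPS the genotypes were separated by -1.30 (SE 0.29, limma adjusted p = 0.0182). Omitting replicate 1 or replicate 3 of the LPS-treated WT group ended that call. Bnip3 fell with LPS in KO (log2 -1.34, limma adjusted p = 0.00295), and the difference in WT was -0.55 (limma adjusted p = 0.187; 0.0114 with the replicate block within genotype).

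Ankrd37, an ankyrin-repeat gene known as a HIF target, was lowest where LPS and the knockout came together. It read 113, 153 and 134 on the LPS-treated KO arrays, against 307, 260.5 and 414 on the LPS-treated WT arrays. In untreated cells it read 351, 409 and 466 in KO, against 597, 484 and 444 in WT. With LPS it was 2.43-fold lower in KO (log2 -1.28, SE 0.18, limma adjusted p = 0.00169), while the untreated groups overlapped. LPS lowered it by a log2 difference of -1.62 in KO (limma adjusted p = 2.65e-05) and -0.65 in WT (limma adjusted p = 0.0175), the WT call being lost without LPS-treated replicate 1 or 2 or untreated replicate 1.

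Higd1a, which encodes a small protein of the inner mitochondrial membrane, read 215, 158 and 216 on the LPS-treated KO arrays, against 301, 302 and 319 on the LPS-treated WT arrays. Untreated arrays read 177, 155 and 165 in KO, against 239, 196 and 187 in WT. KO arrays were lower in both treatments, with a log2 difference of -0.66 with LPS (limma adjusted p = 0.00933). A dimmer second probe set had -0.59 and was not called (limma adjusted p = 0.102). Higd1a rose with LPS in WT by 0.58 (limma adjusted p = 0.00491), and its difference in KO was 0.23 (limma adjusted p = 0.154), or 0.38 and called without LPS-treated KO replicate 2 (limma adjusted p = 0.0132).

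For Vegfa, the angiogenic growth factor, and Adm, which encodes the vasodilator adrenomedullin, replicate 2 of the LPS-treated KO group lay far from the others. Vegfa read 3312, 452 and 2589 on the LPS-treated KO arrays, against 2785, 3024 and 2862 on the LPS-treated WT arrays, and was not called between genotypes (limma adjusted p = 0.408). Adm read 262, 1317 and 218 on the LPS-treated KO arrays, against 135, 94.2 and 226 on the untreated KO arrays. In WT it read 682, 499 and 761 with LPS, against 293, 255 and 283 without. Replicate 2 was the low array for Vegfa and the high array for Adm. Adm was called higher with LPS in KO (1.57, limma adjusted p = 0.0349), and not without replicate 2, where the difference was 0.75, nor without untreated KO replicate 1 or 2, nor with the replicate block over all groups. Without replicate 2, the Adm genotype difference with LPS was -1.42 and was called (limma adjusted p = 0.0174), against -0.60 with it (limma adjusted p = 0.623). For Vegfa, leaving out replicate 2 gave a genotype difference of 0.02 in place of -0.88, and a KO response of 1.27 that was called (limma adjusted p = 6.13e-05) in place of 0.37 (limma adjusted p = 0.597). The WT responses, 0.97 for Vegfa and 1.21 for Adm, were also called in that fit (limma adjusted p = 0.000226 and 0.00445).

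Pdk1 and Pdk3, kinases that shut off pyruvate dehydrogenase, both had LPS calls. Pdk1 fell in KO (log2 -1.07, limma adjusted p = 0.000941) and in WT (log2 -0.81, limma adjusted p = 0.00845). Pdk3 fell in WT (log2 -0.88, limma adjusted p = 0.00245), its difference in KO was -0.38 (limma adjusted p = 0.097; 0.0495 with the replicate block within genotype), and it averaged 691 ± 155 in LPS-treated KO and 450.4 ± 75.1 in LPS-treated WT cells (SD, n = 3 each; limma adjusted p = 0.0549, or 0.0366 without LPS-treated KO replicate 2). P4ha1, a collagen prolyl hydroxylase, had 0 of 5 comparisons called. Ndrg1, a stress-response gene, read 658, 479.7 and 675 on the LPS-treated KO arrays, against 1272, 963 and 2820.3 on the LPS-treated WT arrays. Its spread was wide, and the difference of -1.34 was not called (limma adjusted p = 0.15). Without LPS, Ndrg1 read 485, 410 and 813 in KO, against 2931, 758 and 3157 in WT. That difference was -1.81 and was not called either (limma adjusted p = 0.336).

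**Figure D4:**
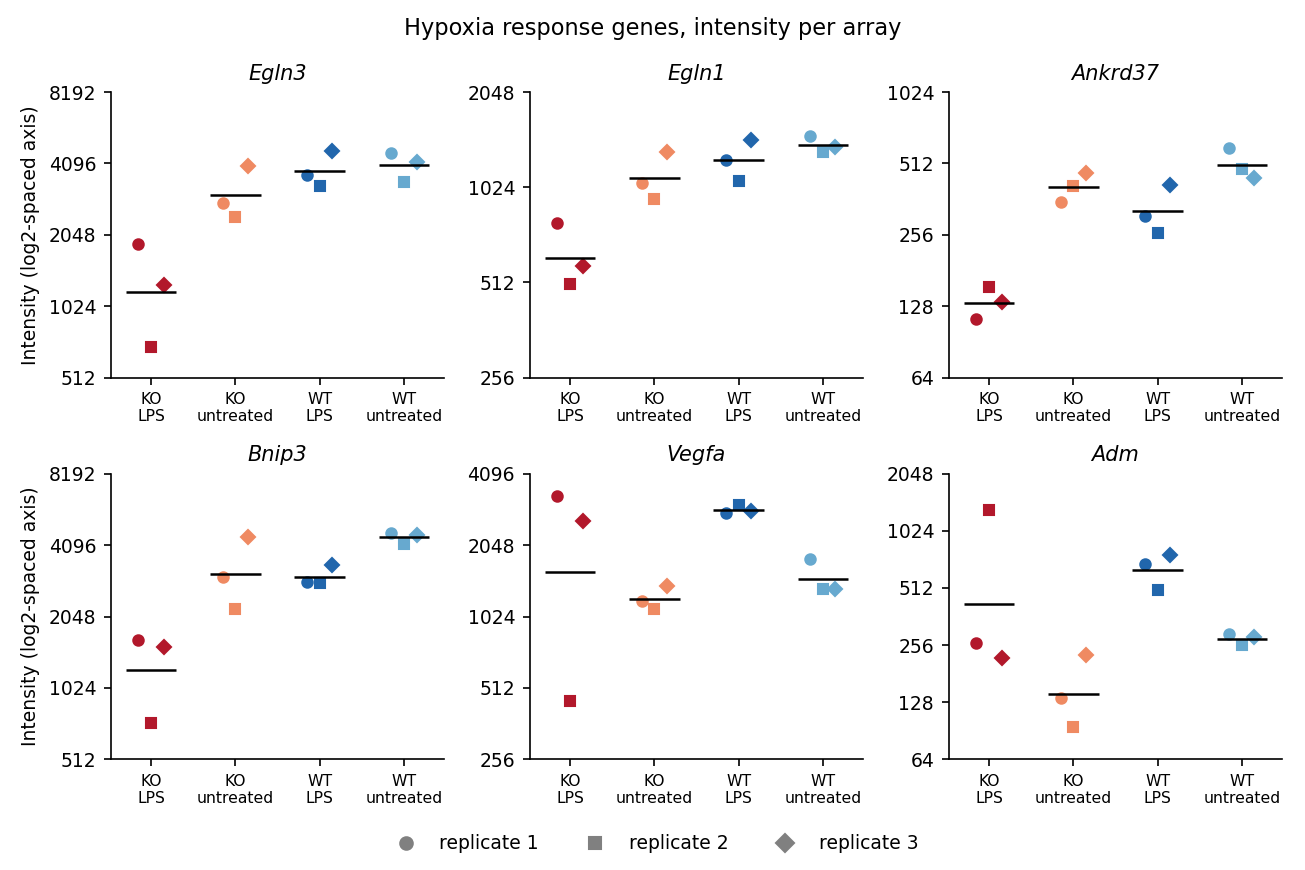
Intensity of hypoxia-response genes on each array (vertical axes, intensity on a log2-spaced axis; symbols mark the replicate number, bars the group means of log2 intensity; 3 arrays per group). Egln3, Bnip3 and Ankrd37 are lower on every LPS-treated KO array than on any LPS-treated WT array.

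Without LPS, none of the members passed the test between the genotypes. With limma, 0 of 36 were called higher and 0 lower in untreated KO cells, against 0.0351% and 0.0401% of all genes. At an unadjusted p under 0.05 there were 1 higher and 7 lower, against 8.68% of all genes in either direction. The median log2 difference was -0.15, against -0.03 over all genes, and 30 of 36 members had a negative difference. Ldhb came nearest to a call, at a limma adjusted p of 0.0656.

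More members fell than rose from untreated to LPS-treated cells. In KO cells 16 of 36 fell and 5 rose, against 23.8% and 21.9% of all genes called lower and higher. In WT cells 12 fell and 5 rose, against 18.5% and 9.53% of all genes. The median log2 response was -0.26 in KO and -0.15 in WT, against 0.07 and 0.04 over all genes. The members that fell in KO were 44.4% of the 36, and those that fell in WT were 33.3%. Slc2a6, Hk2 and Pfkp rose in both genotypes, with Hk3 and Adm called only in the KO fit and Slc2a1 and Higd1a only in the WT fit, differences that did not pass the test of the difference itself. The split of calls moved with the scaling of arrays: after centring on the 75th percentile, 8 rose and 15 fell in KO, and 8 rose and 8 fell in WT, while the median of all genes moved to 0.28 in KO and 0.19 in WT. After quantile normalization, 6 rose and 9 fell in WT. With 1 array omitted, the calls lost most often were those of Hk3 in KO (9 of 12 fits), Pkm in WT (8 of 12) and Aldoa in WT (6 of 12). The WT count of 17 was 11 without replicate 1 of the LPS-treated WT group. For these alternative fits the share of all genes called was not counted.

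**Figure D5:**
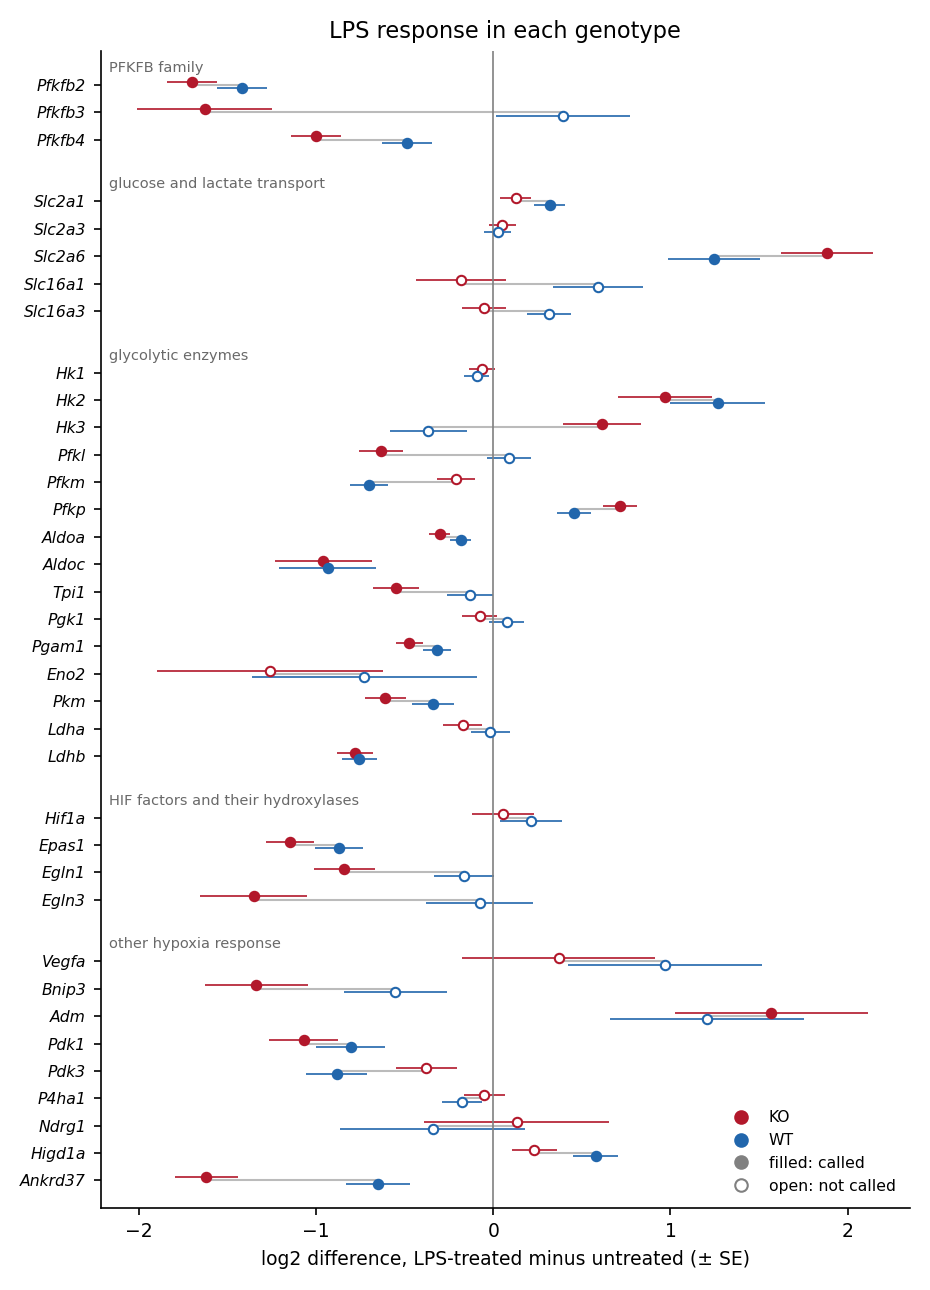
LPS response of the 36 measured genes in each genotype (horizontal axis, log2 intensity, LPS-treated minus untreated, points with SE; KO and WT in separate colours, filled where called; 3 arrays per group). Pfkfb3, Egln3, Egln1 and Pfkl are called lower in KO and lie near 0 or above without a call in WT, and Slc2a6 lies farthest right.

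The difference between both LPS responses was called for 0 of the 36 members with limma, against 0.301% of all genes called higher and 0.446% called lower. At an unadjusted p under 0.05, 2 members were higher and 7 lower, against 13.1% of all genes in either direction. The median difference of responses was -0.23, against 0.02 over all genes. Pfkl came nearest, at -0.73 (limma adjusted p = 0.0975), followed by Ankrd37 at -0.97 (limma adjusted p = 0.122) and Pfkfb3 at -2.02 (limma adjusted p = 0.125). Weighting the arrays by their quality called all 3 of these. An LPS response called in KO and not in WT is therefore not shown to differ between the genotypes by the test as fitted.

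Other genes of the same biology were listed for comparison. Of 21 measured hypoxia regulators and targets outside the set, 3 were called lower in KO with LPS (14.3%) and 1 higher (4.76%), against 4.87% and 3.28% of all genes. The lower ones were P4ha2, a collagen prolyl hydroxylase (-2.01, limma adjusted p = 1.44e-05), Ak4, a mitochondrial adenylate kinase (-1.12, limma adjusted p = 0.00861), and Egln2, the third HIF prolyl hydroxylase (-0.99, limma adjusted p = 0.000318). The higher one was Cited2, which competes with HIF-1α for a co-activator (1.43, limma adjusted p = 0.000304). All 3 prolyl hydroxylases that act on HIF, Egln1, Egln2 and Egln3, were thus lower in KO with LPS. Between the genotypes with LPS, limma called 0 of 7 pentose phosphate genes, 0 of 17 genes of pyruvate handling and gluconeogenesis and 0 of 12 other glycolytic isozymes. At an unadjusted p under 0.05 there were 1, 3 and 2, against 22% of all genes. With 8.14% of all genes called in that comparison, counts of 0 in lists this small set nothing apart. LPS responses were called for 85.7% of the pentose phosphate genes in KO and 71.4% in WT. They were called for 58.8% and 35.3% of the pyruvate list and for 33.3% and 33.3% of the other isozymes, against 45.7% and 28.1% of all genes. Pdk2, another pyruvate dehydrogenase kinase, fell in KO (log2 -2.95, limma adjusted p = 8.49e-08) and in WT (log2 -2.40, limma adjusted p = 4.53e-07).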

How the data were processed

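Total RNA of 12 samples was hybridised to 1-colour arrays. The deposited values are linear intensity values, 1 per probe set, made by the authors with Affymetrix Expression Console 1.1 and RMA, per the submitters' processing notes; the sources used here give neither RMA's settings nor the annotation build. Intensities ran from 6.96 to 22642.5, and array medians from 110.4 to 118.7, so log2 was taken without a pseudocount. Scaling of this kind makes arrays alike, which would hide a shift shared by most transcripts, and dim probe sets understate folds. The number of arrays limits the precision. Correlations within a group were 0.9844 to 0.9944.

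Of 35556 probe sets, 21789 carried 1 symbol in the platform annotation, 1621 several and 12146 none; the brightest per gene gave 19938 genes. Differences were fitted with limma 3.58.1 under R 4.3.3 (eBayes after lmFit, 4 group means, two-sided, 8 residual degrees of freedom), with Benjamini-Hochberg adjustment over all genes in each of 5 contrasts. The procedure was tested on simulated data.

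Members and comparison lists were chosen with earlier results of these data known. Values by array are given for the PFKFB family, for members called between genotypes, and for the 8 members with the largest mean LPS response; a few others were chosen after their values were seen. From other lists, at most 4 called genes per contrast were named.

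Titles number replicates 1 to 3 in each group. Deviations from group means of same-numbered LPS-treated and untreated arrays correlated at 0.32, 0.57 and 0.46 in KO, and at -0.07, 0.14 and 0.36 in WT. Same-numbered arrays thus deviated together in KO, and less evenly in WT. The block within genotype was added after seeing the data. Alternatives were a stricter threshold, leaving out arrays, 6-array fits, other scalings, an intensity trend, leaving out dim genes, a replicate block, weighted arrays and the median over a gene's probe sets. Upstream sequences came from RefSeq on GRCm38.p6; Slc2a3, Epas1 and Ndrg1 were not matched there.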

Additional observations from a re-analysis of the deposited data

Results flagged for a closer look

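The LPS response of P4ha2, a collagen prolyl hydroxylase, differed between the genotypes by a test of the difference itself, at -1.85 on the log2 scale (KO minus WT, SE 0.19, limma adjusted p = 0.00139). It read 206, 153 and 177 on the LPS-treated KO arrays, against 691, 629 and 838 on the LPS-treated WT arrays. Untreated arrays read 237, 234 and 294 in KO, against 277, 304 and 271 in WT. LPS lowered P4ha2 in KO by a log2 difference of -0.52 (limma adjusted p = 0.00887) and raised it in WT by 1.33 (limma adjusted p = 2.16e-05).

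The response of Egln2, a HIF prolyl hydroxylase, also differed by that test, at -0.97 (SE 0.15, limma adjusted p = 0.0137). It read 490.2, 405 and 369 on the LPS-treated KO arrays, against 826, 767 and 916 on the LPS-treated WT arrays, and untreated groups overlapped. The call was lost without replicate 1 of the untreated KO group (limma adjusted p = 0.0552).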

How the results depend on the processing

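Of 3847 alternative values of single members, 3562 kept their direction and their side of the threshold, 106 lost a call and 62 gained one. The 3562 include values that were not called in the main fit and stayed uncalled. The main fit called 21 members for LPS in KO, 17 in WT, 16 between genotypes with LPS, and 0 in both other contrasts. A further 117 changed sign where no call was made, and 0 changed sign with a call on either side. Other genes named here were not in that count. Array weights called 1 member between untreated genotypes and 3 for the difference of responses, with Pfkfb3 at -1.80 (limma adjusted p = 0.0301). The median of all probe sets called 1 member between untreated genotypes. Fitting only the 6 LPS-treated arrays called 4 members between genotypes, and leaving out replicate 2 of the LPS-treated KO group with replicate 3 of the LPS-treated WT group called 7; these fits have fewer samples. At an adjusted p under 0.01, 11 members responded to LPS in WT and 8 differed between genotypes with LPS. The replicate block over all groups called 20 members for LPS in KO, 16 in WT, 17 between genotypes with LPS, and 0 in both other contrasts. The replicate block within genotype called 1 member for the difference of responses, Pfkfb3 at -2.02 (limma adjusted p = 0.00505), and changed 4 further calls: Eno2 and Pdk3 were gained in KO, and in WT Bnip3 was gained and Aldoa lost (limma adjusted p = 0.0862). Leaving out each array in turn gave 18 to 23 members for LPS in KO, 11 to 21 in WT, 9 to 17 between genotypes with LPS, 0 to 1 between untreated genotypes and 0 to 1 for the difference of responses (Slc16a1 without replicate 3 of the LPS-treated KO group, Ankrd37 without replicate 2 of the LPS-treated WT group). The causes of these changes were not tested, and the share of all genes called under each alternative was not counted. With 3 arrays per group, changes smaller than the spread between them cannot be seen.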

Other observations

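Gapdh, the glyceraldehyde phosphate dehydrogenase of glycolysis, could not be counted among the measured genes because all 25 of its probe sets carry further symbols. Their mean intensities lay between 11651 and 16886. The log2 difference, LPS-treated KO minus LPS-treated WT, lay between -0.09 and -0.03, and the LPS response between -0.16 and -0.05 in KO and between -0.12 and -0.08 in WT, with 0 probe sets called by limma in any comparison.

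Several genes next to glycolysis responded to LPS in both genotypes. H6pd, the hexose phosphate dehydrogenase of the endoplasmic reticulum, fell in KO (log2 -1.62, limma adjusted p = 2.03e-06) and in WT (log2 -1.15, limma adjusted p = 3.67e-05). Pgd, which makes ribulose phosphate, fell in KO (log2 -0.94, limma adjusted p = 0.004) and in WT (log2 -0.85, limma adjusted p = 0.0104). G6pc3, the ubiquitous glucose phosphatase, fell in KO (log2 -1.14, limma adjusted p = 0.000258) and in WT (log2 -1.15, limma adjusted p = 0.000378). Slc16a7, a monocarboxylate carrier, fell in KO (log2 -1.19, limma adjusted p = 0.000121) and in WT (log2 -1.40, limma adjusted p = 5.62e-05). Dld, a subunit of the pyruvate dehydrogenase complex, rose by 0.82 in KO (limma adjusted p = 8.49e-06) and by 0.60 in WT (limma adjusted p = 0.00013). None of these 5 was called between the genotypes in LPS-treated cells.

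Cited2 rose with LPS by 1.50 in KO (limma adjusted p = 1.35e-05) and by 0.63 in WT (limma adjusted p = 0.0083). It read 2587, 3420.1 and 3588 on the LPS-treated KO arrays, against 1163, 1402 and 997 on the LPS-treated WT arrays. The difference of responses was 0.87 and was not called (limma adjusted p = 0.101). Hilpda, a hypoxia-inducible lipid droplet gene, read 3790.3, 794 and 4433 on the LPS-treated KO arrays, against 3704, 3984 and 2833 on the LPS-treated WT arrays, with replicate 2 again the low KO array, as it was for Ddit4, an mTOR inhibitor, at 1502, 242 and 1461.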
